A study of Mus musculus with 8 samples.

Results

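The Hippo pathway and its YAP/TAZ-TEAD output were examined through 10 genes of cold-exposed mouse adipose tissue: Yap1, Wwtr1, Tead1, Tead3, Lats1, Lats2, Amotl1, Amotl2, Ankrd1 and Axl. They were chosen by name, with earlier results of these data known. All 10 were found by gene identifier among the 18395 genes of the count table. The series has 8 RNA sequencing libraries. Of these, 4 came from the control group (WT) and 4 from animals lacking Kindlin-2 in brown adipocytes (KO). Kindlin-2 is an integrin-binding protein of focal adhesions and is encoded by Fermt2. Mice of both groups had spent 6 hours at 4 °C, so both genotypes were measured in the cold and no library from warm mice was analysed here. The labels call the tissue adipose, and the series title speaks of brown adipose tissue. Strain, sex, age and the promoter that drove the deletion are not given in the labels, nor is it stated whether replicates were separate animals or pools. P-values therefore measure the spread between these samples, which may be technical.

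In the Hippo pathway, the kinases LATS1 and LATS2 phosphorylate the coactivators YAP (Yap1) and TAZ (Wwtr1) and so keep them out of the nucleus. When the kinases are inactive, YAP and TAZ enter the nucleus and bind TEAD transcription factors, which recognise DNA directly. Attachment to the matrix through integrins and tension in the actin cytoskeleton are known inputs that favour nuclear YAP and TAZ. The angiomotin-like proteins AMOTL1 and AMOTL2 bind YAP and hold it at junctions and actin. Lats2, Amotl2, Ankrd1 and Axl are themselves known transcriptional targets of YAP/TAZ-TEAD, so the list holds parts of the pathway and parts of its output. The values below are mRNA levels, which do not report phosphorylation or nuclear entry.

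The TEAD core motif is GGAATG, or CATTCC when read on the other strand. It was sought on both strands in the 250 bases before the RefSeq gene starts of build GRCm38.p6, where 9 of the 10 genes had promoter windows. A match was present for 6 of these 9 genes (Yap1, Wwtr1, Tead3, Amotl2, Ankrd1 and Axl), against 14.4% of the 27025 genes with windows. Of all 32851 windows, 12.6% held a match. The stretches around the matches of the coactivators and of the target genes are shown because the expression of these genes is compared below. They read 5′ to 3′ along the gene's strand, in lower case with the motif in capitals.
Ankrd1, chr19:36120037-36120066, minus strand: gtcactgccaaaGGAATGaccctctcacat
Ankrd1, chr19:36119950-36119979, minus strand: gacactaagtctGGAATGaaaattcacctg
Axl, chr7:25788949-25788978, minus strand: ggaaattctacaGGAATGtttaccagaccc
Amotl2, chr9:102717727-102717756, plus strand: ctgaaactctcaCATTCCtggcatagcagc
Yap1, chr9:8004720-8004749, minus strand: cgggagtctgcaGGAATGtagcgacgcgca
Wwtr1, chr3:57576029-57576058, minus strand: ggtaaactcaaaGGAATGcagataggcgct
The motif begins 210 and 123 bases before the RefSeq gene start in Ankrd1, 233 in Axl, 65 in Amotl2 and 141 in Yap1. The Ankrd1 and Amotl2 stretches lie within 5′ untranslated exons of GENCODE M21 transcripts that start farther upstream than the RefSeq start, and those of Axl, Yap1 and Wwtr1 lie outside the GENCODE genes. In Wwtr1 it begins 136 bases before one RefSeq start and 170 before the other. Ankrd1 and Tead3 each had a window with 2 matches, which 1.02% of all windows had. Windows of Lats1, Lats2 and Amotl1 held no match in the 250 bases, which says only that these letters are not there. In Lats2 the motif does begin 4 bases past the RefSeq start, on the gene's strand, where matches were not counted. A match is a description of sequence and not evidence of TEAD binding.

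Library totals ran from 33672272 to 43253559 counts. Fermt2 lay lower in all 4 KO libraries than in any WT library, with a WT mean of 230 ± 19.4 CPM and a KO mean of 168 ± 25.3 CPM (SD, n = 4 each). CPM is a gene's read count relative to the size of its library, here after scaling by trimmed mean of M values (TMM), which sets libraries against each other on genes of middling difference. The log2 fold change of Fermt2 was -0.45 ± 0.14 (SE), with an edgeR adjusted p of 0.134, and it was -0.19 (adjusted p = 0.374) with total-count scaling. The 12 genes of the brown adipocyte list summed to 23080 to 27470 CPM for WT and to 16120 to 23600 CPM for KO. Fabp4, which is not particular to brown adipocytes, held the largest part (means of 10470 CPM for WT and 9383 CPM for KO). Ucp1 was present in all libraries, at 5082 to 6576 CPM in WT and 1792 to 4301 CPM in KO. A pair of libraries stood apart. WT replicate 3 carried 44680 CPM of 11 skeletal muscle genes, against 4.48 to 302.5 CPM in the other 7 libraries. KO replicate 2 carried 2300 CPM of 8 interferon-response genes, against 130 to 280.4 CPM elsewhere. Results are therefore also given without these 2 libraries, which leaves 3 per group and is called the 6-library comparison. In whole tissue, fewer cells of a type and less RNA per cell cannot be told apart.

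None of the members passed the test between genotypes. Ankrd1 was too low to be tested, and of the other 9 members 0 had an edgeR adjusted p under 0.05, where the share called over all 13901 tested genes was 0%. The smallest adjusted p among the members was 0.152, for Tead1. At an unadjusted p under 0.05 there were 3 of 9 members (Lats2 and Axl higher in KO, Tead1 lower), against 21.5% of all genes tested. In 0 of 9 members did the 4 KO libraries all lie above or all below the 4 WT libraries, whereas 5.80% of all genes lay wholly above and 7.56% wholly below. With TMM scaling and 8 libraries 3 of 9 members lay higher in KO and 6 lower. Their median log2 fold change was -0.15, against 0.00362 over all genes. The tally was 5 higher and 4 lower both with 6 libraries (median 0.07) and with sample quality weights (median 0.03).

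**Figure D1:**
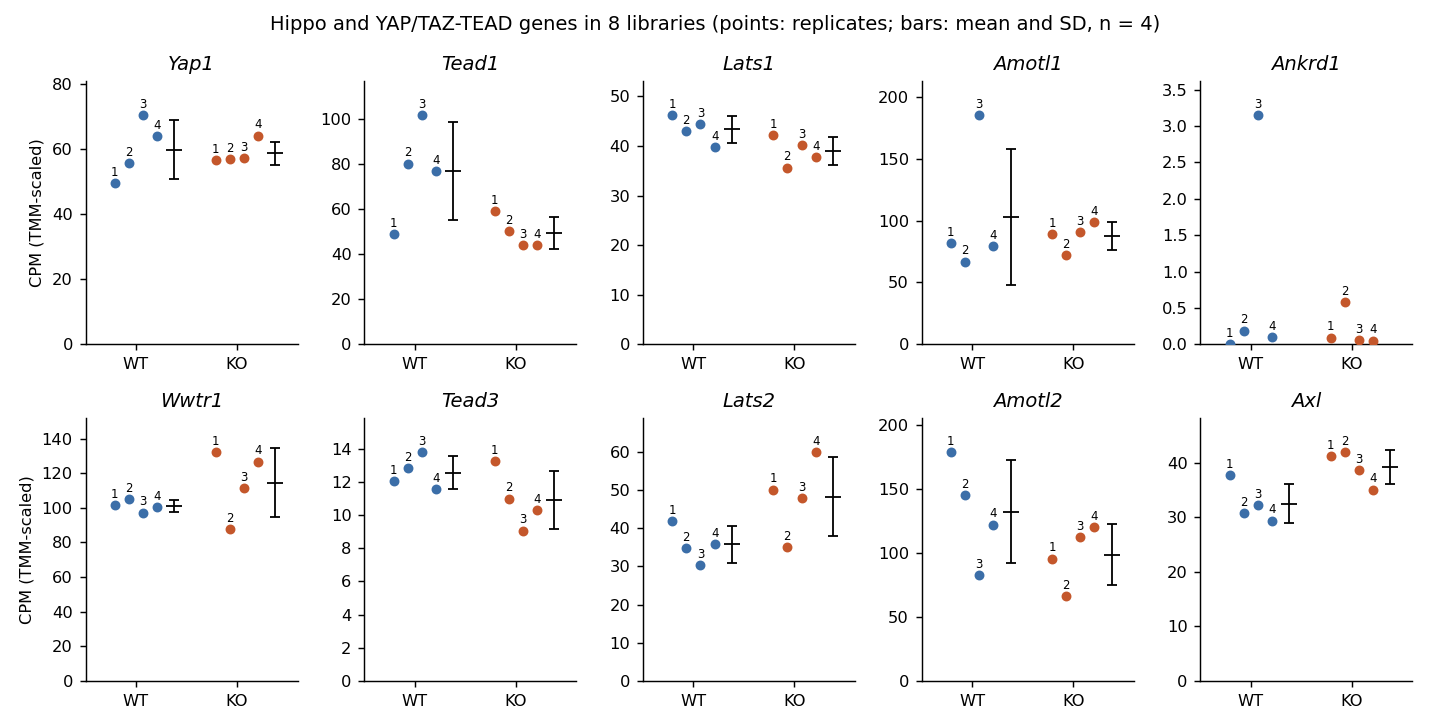
Expression of the 10 genes in each library, as TMM-scaled CPM on axes that start at 0; points are replicates with their numbers, and bars are the mean and SD (n = 4), left out for Ankrd1. WT and KO points overlap in every panel, with WT replicate 3 far above the other libraries for Amotl1 (185 CPM) and Ankrd1 (3.15 CPM).

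The alternative tests moved few members. In the 6-library comparison edgeR again called 0 of the 9 members, against 3.32% of all genes. In that comparison Wwtr1, Lats2 and Amotl1 lay higher in all 3 KO libraries than in all 3 WT libraries, and Amotl2 lay lower. Over all genes such separation was seen for 15.4% (higher) and 15.3% (lower). DESeq2 called 1 member, Tead1, against 8.71% of all genes, and limma-voom with sample quality weights also called Tead1 alone, against 6.55%. Plain limma-voom called 0 members and 0% of all genes.

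The choice of scaling matters for the sign of small differences. TMM factors were 0.914 ± 0.0288 in WT and 1.09 ± 0.0447 in KO (SD, n = 4). With total library size alone, the median log2 fold change over all genes was 0.264, and 882 genes (6.34%) were called, 858 higher and 24 lower in KO, where TMM scaling gave 0 calls. With this scaling Yap1, Tead3, Lats1 and Amotl1 turned from lower to higher, so that 7 of 9 members lay higher, and the median of the members was 0.11. Of all 13901 tested genes 10568 lay higher with this scaling. Lats2 and Axl passed under it, at 0.69 and 0.53 (adjusted p = 0.0494 and 0.0420). Relative to the median of all genes, each of the 9 members lay on the same side as with TMM scaling.

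Gene positions below are those of GENCODE M21 on build GRCm38. Neither coactivator gene passed the test. Yap1 (ENSMUSG00000053110, chr9:7931999-8004596, minus strand) encodes YAP. It measured 49.4, 55.6, 70.3 and 63.8 CPM in WT replicates 1 to 4, and 56.5, 56.9, 57.0 and 64.0 CPM in KO replicates 1 to 4. The KO values lay inside the WT range. Its log2 fold change was -0.03 ± 0.13 (SE; edgeR adjusted p = 0.912), 0.07 ± 0.13 in the 6-library comparison and 0.23 with total-count scaling.

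Wwtr1 (ENSMUSG00000027803, chr3:57455649-57575910, minus strand) encodes TAZ. Its 4 WT libraries were tightly grouped at 101, 105, 97.2 and 101 CPM, and its KO libraries spread from 132 in replicate 1 through 87.6, 112 and 127 CPM in replicates 2 to 4. KO replicates 1, 3 and 4 lay above every WT library and KO replicate 2 below every WT library. KO exceeded WT by 0.18 ± 0.14 on the log2 scale (SE; edgeR adjusted p = 0.445), which was 0.27 ± 0.11 with 6 libraries (adjusted p = 0.195), 0.44 with total-count scaling (adjusted p = 0.0842), 0.10 without KO replicate 1 and 0.29 without KO replicate 2.

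Tead1 (ENSMUSG00000055320, chr7:112679318-112906807, plus strand), which encodes a DNA-binding partner of YAP and TAZ, had the largest difference among the 9 tested members. It measured 49.0, 80.2, 102 and 76.8 CPM in WT replicates 1 to 4 and 59.1, 50.4, 44.1 and 44.0 CPM in KO replicates 1 to 4. WT replicate 1 lay among the KO values, and the other 3 WT libraries lay above all KO libraries. Between the groups the log2 fold change was -0.64 ± 0.21 (SE; edgeR adjusted p = 0.152). DESeq2 gave an adjusted p of 0.0476 and limma-voom with quality weights 0.0473, while the 6-library comparison gave -0.49 ± 0.20 (adjusted p = 0.191). With total-count scaling the value was -0.37 (adjusted p = 0.248).

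Tead3 (ENSMUSG00000002249, chr17:28331671-28350817, minus strand), which encodes another TEAD factor, measured 12.0, 12.8, 13.8 and 11.6 CPM in WT and 13.3, 10.99, 9.06 and 10.3 CPM in KO. The groups overlapped through KO replicate 1. Its log2 fold change was -0.20 ± 0.15 (SE; edgeR adjusted p = 0.441), and it was 0.07 with total-count scaling. It was -0.13 without KO replicate 3 and -0.32 without KO replicate 1.

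The remaining TEAD genes were not members and were read from a list of other TEADs and vestigial-like cofactors, which compete for TEAD binding. Tead2 measured 10.4 to 13.3 CPM in WT and 22.7, 8.11, 18.9 and 27.3 CPM in KO replicates 1 to 4. Tead4 measured 6.06 to 11.6 CPM in WT and 20.6, 5.59, 22.7 and 23.9 CPM in KO. For both genes KO replicates 1, 3 and 4 lay above every WT library and KO replicate 2 lay below every WT library. With all 8 libraries the log2 fold changes were 0.75 ± 0.32 and 0.90 ± 0.42 (SE; edgeR adjusted p = 0.215 and 0.247). In the 6-library comparison both rose, by 1.01 ± 0.18 and 1.23 ± 0.23 (adjusted p = 0.0329 and 0.0347). Leaving out KO replicate 2 alone gave 1.01 and 1.20 (adjusted p = 0.0322 and 0.0342), and leaving out WT replicate 3 alone did not end in a call.

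Counts of Tead4 relative to Tead1, a ratio picked after its values were seen and not tested, were 0.124, 0.145, 0.102 and 0.144 in the WT libraries. In the KO libraries, in the same order of replicates, they were 0.349, 0.111, 0.515 and 0.543. KO replicate 2 thus lay inside the WT range and the other 3 KO libraries above it. Counts of Tead2 relative to Tead1 were 0.114 to 0.213 in WT and 0.384, 0.161, 0.429 and 0.621 in KO, with the same division of libraries. Vgll4, a vestigial-like cofactor, had a WT mean of 62.1 ± 25.4 CPM and a KO mean of 39.5 ± 5.17 CPM (SD, n = 4 each). It differed by -0.65 ± 0.26 on the log2 scale (SE; edgeR adjusted p = 0.203), by -0.36 without WT replicate 1, which held 96.7 CPM, and by -0.39 with total-count scaling. Vgll3 stood at -0.31 ± 0.28 (SE; edgeR adjusted p = 0.543), at -0.05 without WT replicate 3 and at -0.04 with 6 libraries. Of the 4 tested genes in this list 2 lay higher and 2 lower, and 0 were called with 8 libraries and 2, both higher, with 6. Over all genes tested the shares called were 0% with 8 libraries and 3.32% with 6.

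**Figure D2:**
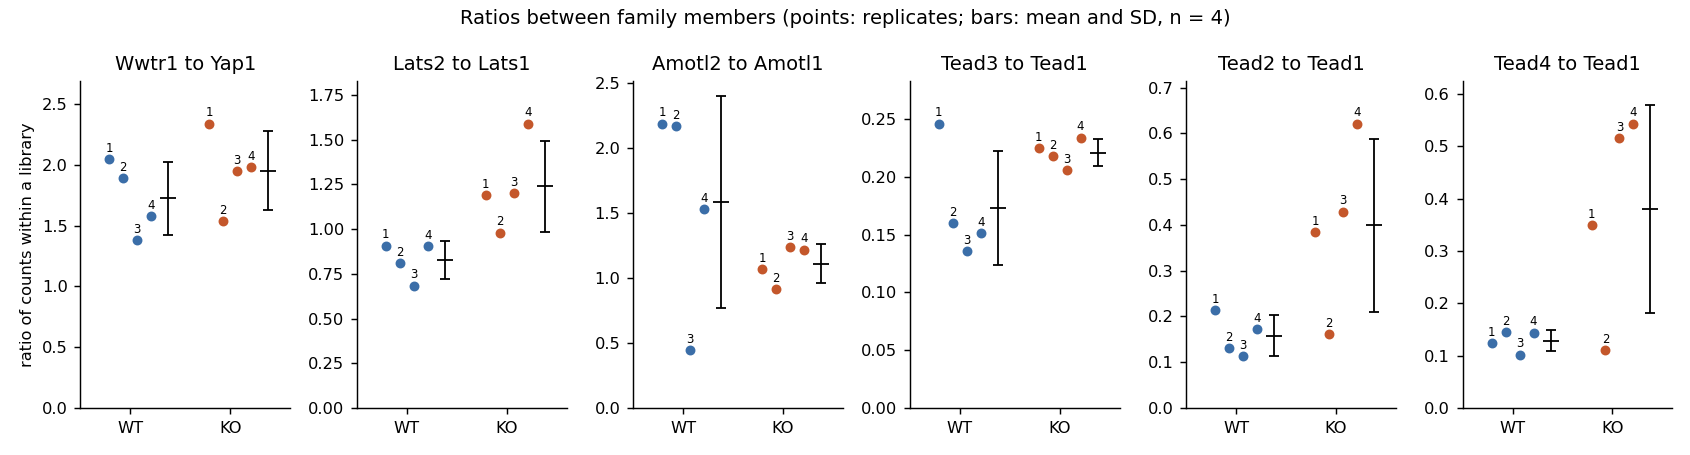
Ratios of counts within each library for 4 pairs of members and, at the right, for Tead2 and Tead4 over Tead1; points are replicates with their numbers, bars are the mean and SD (n = 4), and axes start at 0. The Lats2 to Lats1 panel shows all 4 KO points above all 4 WT points, and in the Tead2 and Tead4 panels KO replicate 2 sits among the WT points.

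The LATS kinases restrain YAP and TAZ. Lats1 (ENSMUSG00000040021, chr10:7681214-7716460, plus strand) was the steadiest member, with 46.2, 43.1, 44.4 and 39.7 CPM in WT and 42.2, 35.7, 40.1 and 37.8 CPM in KO. Its groups overlapped, and its standard deviation over the 8 libraries was 0.124 on the log2 CPM scale. KO differed from WT by -0.15 ± 0.10 on the log2 scale (SE; edgeR adjusted p = 0.364), and with total-count scaling it was 0.11.

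Lats2 (ENSMUSG00000021959, chr14:57689662-57758388, minus strand), a kinase gene that YAP and TAZ also induce as feedback, measured 41.9, 34.8, 30.4 and 35.9 CPM in WT and 50.2, 35.0, 48.0 and 60.0 CPM in KO. KO replicates 1, 3 and 4 lay above every WT library, and KO replicate 2 lay within the WT range. KO exceeded WT by 0.43 ± 0.17 on the log2 scale (SE; edgeR adjusted p = 0.193), and by 0.49 ± 0.13 with 6 libraries (adjusted p = 0.0737).

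Ratios between paralogs within a library do not depend on scaling, and 4 pairs were compared. Counts of Lats2 relative to Lats1 were 0.908, 0.809, 0.684 and 0.905 in WT and 1.19, 0.981, 1.20 and 1.59 in KO. All 4 KO ratios lay above all 4 WT ratios. The log2 ratio was higher in KO by 0.57, with a two-sided exact permutation p of 0.0286, the smallest that 4 against 4 can give. The p adjusted over the 4 pairs was 0.114. A pair that alone reaches the smallest exact p cannot pass the threshold after adjustment over 4 pairs. The adjusted test therefore could not decide on this difference, and no conclusion is drawn from its result. Without KO replicate 4 the difference was 0.45.

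For the other pairs the groups overlapped. The log2 ratio of Wwtr1 to Yap1 was 0.77 ± 0.26 in WT and 0.95 ± 0.25 in KO (SD, n = 4; exact permutation p = 0.371, adjusted 0.495). The log2 ratio of Tead3 to Tead1 was -2.57 ± 0.38 in WT and -2.18 ± 0.08 in KO (exact permutation p = 0.143, adjusted 0.286; n = 4 each). For Amotl2 to Amotl1 it was 0.43 ± 1.09 in WT and 0.14 ± 0.20 in KO (exact permutation p = 0.686, adjusted 0.686; n = 4 each). The wide WT spread of that pair came with WT replicate 3, whose ratio was 0.447 against 1.53 to 2.19 in the other WT libraries.

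The angiomotin-like genes were the most variable tested members together with Tead1, with standard deviations over the 8 libraries of 0.453, 0.453 and 0.451 on the log2 CPM scale. Amotl1 (ENSMUSG00000013076, chr9:14541966-14645056, minus strand) measured 81.7, 67.0, 185 and 79.6 CPM in WT and 89.3, 72.4, 90.9 and 98.6 CPM in KO. WT replicate 3 stood far above all other libraries. With all libraries the log2 fold change was -0.24 ± 0.31 (SE; edgeR adjusted p = 0.674), and it was 0.04 with total-count scaling. It turned to 0.21 without WT replicate 3 (adjusted p = 0.436) and to 0.29 ± 0.12 with 6 libraries (adjusted p = 0.188). The library that decides the direction of Amotl1 is the one with 44680 CPM of skeletal muscle transcripts, whose part in it was not tested.

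Amotl2 (ENSMUSG00000032531, chr9:102716672-102733418, plus strand), an angiomotin-like gene that YAP also induces, measured 179, 145, 82.9 and 122 CPM in WT and 95.5, 66.2, 113 and 120 CPM in KO. WT replicate 3 lay among the KO values, and the other 3 WT libraries lay above every KO library. On the log2 scale KO differed from WT by -0.42 ± 0.25 (SE; edgeR adjusted p = 0.342), -0.44 ± 0.16 with 6 libraries (adjusted p = 0.143) and -0.17 with total-count scaling. Without WT replicate 1 it was -0.24, and without KO replicate 2 it was -0.27. Amot, the founding angiomotin, showed the same library as Amotl1, with 33.7 CPM in WT replicate 3 and 3.24 to 7.59 CPM in the other 7 libraries.

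Of the known targets, Ankrd1 (ENSMUSG00000024803, chr19:36111961-36120099, minus strand), which encodes an ankyrin repeat protein of striated muscle nuclei and sarcomeres, was almost silent. It had 0, 6, 94 and 4 counts in the WT libraries and 4, 26, 2 and 2 counts in the KO libraries, replicates 1 to 4 in order. A count of 0 in WT replicate 1 allows a level of up to 0.09 CPM, from counting error alone. The highest value, 3.15 CPM, was in WT replicate 3 and the next, 0.581 CPM, in KO replicate 2. Summed skeletal muscle transcripts were 44680 CPM in the first of these libraries and 253.8 CPM in the second, and 302.5 CPM in WT replicate 4, where Ankrd1 was 0.10 CPM. The part of muscle in these Ankrd1 reads was not tested. Without the low-count filter edgeR gave -2.10 ± 1.52 on the log2 scale (SE; adjusted p = 0.467), and WT replicate 3 alone held 94 of the WT counts.

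Axl (ENSMUSG00000002602, chr7:25757273-25788705, minus strand), a receptor tyrosine kinase for Gas6 that is also found on macrophages and dendritic cells, measured 37.7, 30.7, 32.3 and 29.4 CPM in WT and 41.3, 42.0, 38.7 and 35.1 CPM in KO. KO replicates 1 to 3 lay above every WT library, and KO replicate 4 lay below WT replicate 1. KO exceeded WT by 0.27 ± 0.11 on the log2 scale (SE; edgeR adjusted p = 0.211), and by 0.24 ± 0.14 with 6 libraries (adjusted p = 0.332). With 8 libraries all 8 macrophage markers lay higher in KO, and with 6 libraries 6 of 8 did. Their sum was 137.5 to 191.7 CPM for WT and 147.1 to 388 CPM for KO, overlapping, with the highest value in KO replicate 2. All 8 dendritic cell markers lay higher with 8 libraries and 7 of 8 with 6, and their sum was 378.5 to 511.1 CPM for WT and 567.5 to 1812 CPM for KO, without overlap. Taken singly, 1 of the 8 had all KO libraries above all WT libraries, against 5.80% of all genes tested. The lowest KO sum was in KO replicate 1, where Zbtb46 held 124 CPM (46.4 to 64.1 CPM in WT). The lack of overlap rests on Zbtb46, since without it the sum of KO replicate 1 would lie below that of WT replicate 1. In that library H2-Ab1, H2-Aa, H2-Eb1 and Cd74 lay within the WT range. The part of macrophages and dendritic cells in the Axl values was not tested.

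**Figure D3:**
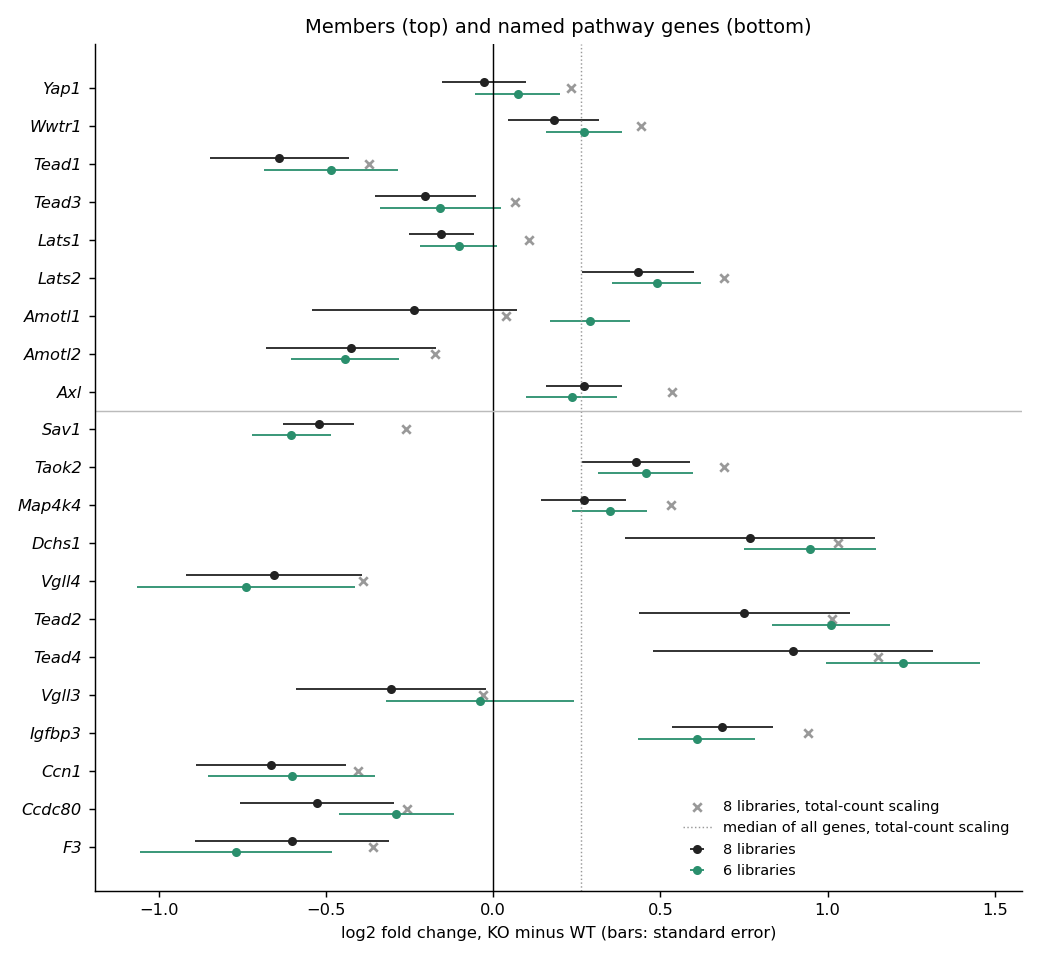
Log2 fold changes of KO against WT for the 9 tested members (top) and 12 pathway genes named by rank of p in their lists (bottom), with standard errors as bars, for 8 and 6 libraries under TMM scaling; crosses show total-count scaling and the dotted line the median of all genes under it (0.264). Amotl1 changes sign between 8 and 6 libraries, and Tead2 and Tead4 have the highest 6-library values (1.01 and 1.23).

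The wider pathway was read from 3 lists of genes that are not members. Of 19 other kinases, scaffolds and inputs, 18 were tested. With TMM scaling 12 lay higher in KO and 6 lower, where 7017 of all 13901 tested genes lay higher. With total-count scaling 16 lay higher and 2 lower, where 10568 of all tested genes lay higher. The TMM median of the 18 was 0.12 on the log2 scale, against 0.00362 over all genes. With 8 libraries 0 of the 18 were called, against 0% of all genes tested. With 6 libraries 1 rose and 1 fell, where 3.32% of all genes were called. Sav1, the scaffold that joins the MST kinases to LATS, measured 51.6, 43.2, 42.3 and 48.1 CPM in WT and 33.2, 35.0, 30.4 and 30.4 CPM in KO. No KO library reached the lowest WT library, as was also so for 7.56% of all genes tested. Its log2 fold change was -0.52 ± 0.11 (SE; edgeR adjusted p = 0.0938), and it fell by 0.60 on the log2 scale with 6 libraries (adjusted p = 0.0364). Without KO replicate 2 alone it fell by 0.56 (adjusted p = 0.0412), and DESeq2 gave an adjusted p of 0.00316. With total-count scaling the value was -0.26 (adjusted p = 0.159).

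Dchs1, a cadherin that acts upstream of Hippo signalling with Fat4, measured 5.36 to 8.57 CPM in WT and 16.8, 4.16, 11.5 and 14.3 CPM in KO. It lay above every WT library in KO replicates 1, 3 and 4 and below every WT library in KO replicate 2. The difference was 0.77 ± 0.37 on the log2 scale (SE; edgeR adjusted p = 0.260), and with 6 libraries it rose by 0.95 ± 0.20 (adjusted p = 0.0406). Without KO replicate 2 alone it was 1.05 (adjusted p = 0.0376). Taok2 and Map4k4, upstream kinases, differed by 0.43 ± 0.16 and 0.27 ± 0.13 (edgeR adjusted p = 0.188 and 0.244). Taok2 was at 0.28 without KO replicate 1, and with total-count scaling Taok2 was at 0.69 (adjusted p = 0.0521) and Map4k4 at 0.53 (adjusted p = 0.0490). The MST kinase genes Stk3 and Stk4 stood at 0.12 ± 0.13 and 0.06 ± 0.17, and Nf2, an upstream activator of LATS, at -0.09 ± 0.15 (0.16 with total-count scaling). These 3 genes were added after their values were seen.

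Of 18 other YAP/TAZ target genes 17 were tested, of which 9 lay higher in KO and 8 lower, with a median of 0.03 on the log2 scale. The edgeR test called 0 of them with 8 or with 6 libraries, against 0% and 3.32% of all genes tested. With total-count scaling 11 of the 17 lay higher and 6 lower, and with quality weights 7 higher and 10 lower. Of all 13901 tested genes 7017 lay higher with TMM scaling, 10568 with total-count scaling and 7063 with quality weights. Igfbp3, which encodes a binding protein for insulin-like growth factors, measured 24.4, 35.6, 24.6 and 23.6 CPM in WT and 43.8, 46.6, 37.7 and 45.8 CPM in KO. Every KO library exceeded the highest WT library, as was also so for 5.80% of all genes tested. Its log2 fold change was 0.69 ± 0.15 (SE; edgeR adjusted p = 0.0981), with an adjusted p of 0.00607 in DESeq2, 0.0371 in limma-voom with quality weights and 0.0833 with 6 libraries. With total-count scaling it was 0.94 (adjusted p = 0.0355).

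Ccn1, a matricellular protein gene and a widely used YAP readout, pointed the other way. It measured 66.0, 45.0, 42.6 and 29.8 CPM in WT and 31.2, 22.9, 29.0 and 32.4 CPM in KO, and WT replicate 4 lay among the KO values. Its log2 fold change was -0.67 ± 0.22 (SE; edgeR adjusted p = 0.159), and it was -0.44 without WT replicate 1 and -0.40 with total-count scaling. F3, tissue factor, and Ccdc80, a secreted matrix protein gene, stood at -0.60 ± 0.29 and -0.53 ± 0.23 (edgeR adjusted p = 0.257 and 0.227). F3 was at -0.37 without WT replicate 2, and Ccdc80 at -0.26 without WT replicate 3. With total-count scaling F3 was at -0.36 and Ccdc80 at -0.26. Ccn2, the companion readout of Ccn1, had a WT mean of 14.5 ± 3.05 CPM and a KO mean of 11.5 ± 6.01 CPM (SD, n = 4 each), and was added after its values were seen. Between groups its log2 fold change was -0.34 ± 0.44 (SE; edgeR adjusted p = 0.671), and -0.06 with 6 libraries, which leave out the 3.04 CPM of KO replicate 2.

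**Figure D4:**
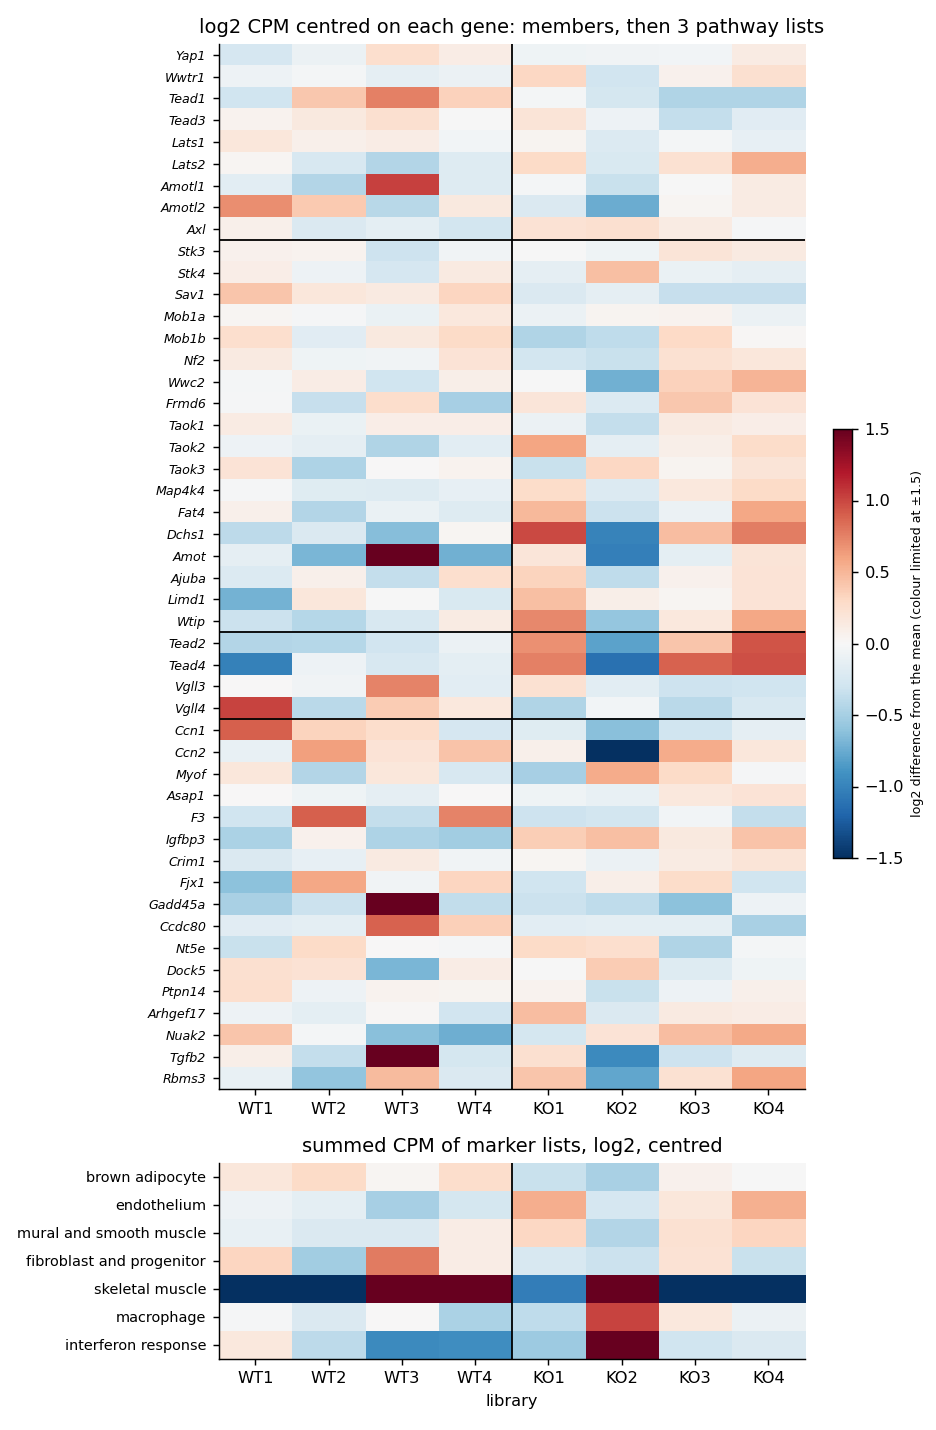
Log2 CPM of the tested members and of the 3 pathway lists, each gene centred on its mean over the 8 libraries (columns), with the summed CPM of 7 marker lists, treated the same way, in the lower block; colours end at ±1.5. Amotl1, Amot, Gadd45a and Tgfb2 are deepest red in WT replicate 3, and Tead2, Tead4 and Dchs1 are red in KO replicates 1, 3 and 4 and blue in KO replicate 2.

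Some marker lists had the same KO libraries above WT as several of these genes. With TMM scaling 13 of 14 endothelial markers lay higher in KO, where 7017 of all 13901 tested genes did. The median of the 14 was 0.62 on the log2 scale. In 2 of the 14 all KO libraries lay above all WT libraries, against 5.80% of all genes tested. The summed level of the 14 was 2745, 2625, 2055 and 2408 CPM in WT and 4233, 2431, 3256 and 4187 CPM in KO. KO replicates 1, 3 and 4 lay above every WT library and KO replicate 2 within the WT range, as was the case for Lats2. Wwtr1, Tead2, Tead4 and Dchs1 had the same 3 KO libraries above all WT libraries, but KO replicate 2 below all of them. In the 6-library comparison 15.4% of all genes tested had these 3 KO libraries above the 3 WT libraries. Mural and smooth muscle markers lay at 878.7 to 1103 CPM in WT and at 1260, 750.7, 1191 and 1278 CPM in KO, again with KO replicates 1, 3 and 4 above every WT library. KO replicate 2 lay below every WT library. Of the 8 mural markers 7 lay higher in KO and 1, Cspg4, lower, both with 8 and with 6 libraries. In 0 of them did all 4 KO libraries lie above all 4 WT libraries, against 5.80% of all genes tested. The part of these cells in the differences was not tested.

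Of 12 genes in the brown adipocyte list 11 lay lower in KO with TMM scaling, where 6884 of all 13901 tested genes did. The median of the 12 was -0.40 on the log2 scale, and 5 lay wholly below WT, against 7.56% of all genes tested. With total-count scaling Cidea, Cox8b, Cox7a1 and Fabp4 turned to higher, at 0.16, 0.15, 0.02 and 0.09. Pparg was higher with both scalings. The median of all genes was 0.264 with total-count scaling. Fibroblast and progenitor markers lay at 518.6 to 1273 CPM in WT, with the highest value in WT replicate 3, and at 590.2 to 861.5 CPM in KO. Median log2 fold changes of the T and NK cell, B cell, interferon-response and Schwann cell markers were 1.98, 0.66, 0.99 and 0.36 with 8 libraries, and 0.75, 0.48, -0.30 and -0.09 with 6. Mesothelial and epithelial markers were nearly absent, at 2.27 to 4.86 CPM in sum over all 8 libraries. Each of the 12 marker lists had no gene in the table with 0 counts in all libraries, and Krt5 was not matched to any gene.

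Levels of different genes were compared per kilobase of exon, with lengths from GENCODE M21. In WT the order was led by Wwtr1 at 21.2 ± 0.68 and Amotl2 at 21.04 ± 6.42 CPM per kilobase (SD, n = 4). Amotl1 followed at 10.3 ± 5.47, Axl at 6.46 ± 0.72, Yap1 at 6.46 ± 0.99, Lats1 at 5.94 ± 0.37, Tead1 at 5.67 ± 1.59 and Lats2 at 5.13 ± 0.68 CPM per kilobase. Each of these 8 genes overlapped in WT range with the next in the order, down to Lats2. The overlap of Amotl2 with Amotl1 came from WT replicate 3 alone. That library had the lowest WT value of Amotl2 (13.2) and the highest of Amotl1 (18.4 CPM per kilobase). Tead3, at 1.87 ± 0.15, and Ankrd1, at 0.30 ± 0.53, lay below all of them without overlap. Among the coactivators TAZ mRNA was thus above YAP mRNA in every WT library, with WT ranges of 20.3 to 21.99 and 5.34 to 7.59 CPM per kilobase.

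In KO the same genes led, with Wwtr1 at 24.0 ± 4.18, Amotl2 at 15.7 ± 3.81 and Amotl1 at 8.72 ± 1.10 CPM per kilobase (SD, n = 4). Lats2, at 6.93 ± 1.48, moved from the eighth place to the fifth, and Tead1, at 3.64 ± 0.53, from the seventh to the eighth. The KO ranges of Axl, Lats2 and Yap1 overlapped in turn, so the place of Lats2 does not stand outside that spread. Lats1, Tead1, Tead3 and Ankrd1 came below Yap1, each without overlap with the gene before it.

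For each tested member the genes with the most similar profile over the 8 libraries were picked from 11381 genes outside the members. They had the smallest root mean square distance in centred log2 CPM, a description that was not tested. For Lats2 these were Klf7, a zinc finger factor gene, and Gch1, which makes the tetrahydrobiopterin precursor, at distances of 0.0763 and 0.0829 against a standard deviation of 0.331 for Lats2 itself. Their differences were 0.50 and 0.52, and a size like that of Lats2 follows from picking them by profile over the same libraries. Both missed the threshold with 6 libraries (edgeR adjusted p = 0.0641 and 0.0740). For Wwtr1 the closest was Mgat1 (0.0560), and for Yap1 they were Il6st and Sugp2 (0.0576 and 0.0652). Lats1 was closest to Acvr1 and Tatdn3 (0.0441 and 0.0462), Axl to Hps5 and Zfp410 (0.0491 and 0.0583), and Tead3 to Ypel3 and Pla2g6 (0.0705 and 0.0813). The variable members had more distant neighbours, with Ltc4s and Rpusd2 for Tead1 (0.134 and 0.152), Pdp1 and Cmss1 for Amotl1 (0.112 and 0.119), and Ppp1r3d and Dusp6 for Amotl2 (0.154 and 0.156).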

How the data were processed

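Poly(A) RNA of adipose tissue was sequenced in 4 WT and 4 KO libraries after a strand-marking dUTP step, per the labels' protocols. The authors deposited 1 whole-number count per gene and library, and the build named in the submitters' processing notes is GRCm39. How reads were aligned and counted, with which annotation and strand setting, is not given in the sources used here. Symbols and exon lengths came from GENCODE M21 (18321 of 18395 genes matched, 74 without a symbol) and promoters from RefSeq on GRCm38.p6, so printed coordinates are of that build and not of GRCm39.

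Genes kept by filterByExpr (13901) were scaled by TMM and tested with the robust quasi-likelihood F test of edgeR 4.0.16 in R 4.3.3, with group as the only term and Benjamini-Hochberg adjustment at 0.05 over all genes. The common biological coefficient of variation was 0.361. Counts of the 9 tested members ran from 339 to 5959 per library, so counting error was small beside the spread between libraries. Paralog ratios used counts plus 0.5 and exact permutation tests in scipy 1.17.1. Alternatives were DESeq2 1.42.0 (on all genes, with its own filtering), limma 3.58.1 with and without sample quality weights, other scalings and filters, a replicate block and each library left out. The tests were also run on simulated counts with the same dispersion for every gene and no deviating library. That setting differs from data with libraries such as WT replicate 3 and KO replicate 2, and no conclusion is drawn from it. The members and lists were chosen with earlier results of these data known, as was the 6-library comparison, which was added after the data had been seen. Named genes were all members, Fermt2, up to 4 genes with the smallest p in each pathway list, and the 2 nearest profiles of each tested member among genes whose log2 CPM averaged 1 or more; genes named outside this rule are said to be so. For Wwtr1 1 of the 2 nearest profiles is not reported here.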

Additional observations from a re-analysis of the deposited data

Results flagged for a closer look

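Among the values of Fermt2, the 10 members, the 12 named pathway genes and the 4 ratios, 54 groups of 4 libraries were examined for a library far from the other 3. The gap exceeded the 95% critical value of Dixon in 7, where 2.7 would be expected at 1 in 20. WT replicate 3 was the distant library in 3 of them. It measured 185 CPM for Amotl1 (67.0 to 81.7 CPM in the other WT libraries), 3.15 CPM for Ankrd1 (0 to 0.188 CPM) and 4.39 CPM for Vgll3 (2.31 to 2.61 CPM). The same library carried 44680 CPM of skeletal muscle transcripts, whose part in these values was not tested.

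Ankrd1 stood apart in KO replicate 2 as well, at 0.581 CPM against 0.0493 to 0.0922 CPM in the other KO libraries. Yap1 was distant in KO replicate 4, at 64.0 CPM against 56.5 to 57.0 CPM, a gap that is wide only beside the narrow range of the other 3. Igfbp3 was distant in WT replicate 2, at 35.6 CPM against 23.6 to 24.6 CPM, and this WT library was still below all KO libraries. Ccdc80 was distant in KO replicate 4, at 25.7 CPM against 32.1 to 32.5 CPM.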

How the results depend on the processing

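The number of genes called over the whole table was 0 and became 1113 with DESeq2, 911 with quality weights, 882 with total library size, 461 with 6 libraries, 1 without a filter and 0 to 361 with each library left out, where 361 was without KO replicate 2. Members called were 0 and became 1 with DESeq2, 1 with quality weights and 2 with total library size, and 0 with each library left out. Members with groups that did not overlap were 0 of 9 (13.4% of all genes) and became 2 with total library size (21% of all genes), 4 with 6 libraries (30.7%) and 0 to 2 with each library left out (15.4% to 23.5%). Fermt2 passed with DESeq2 (-0.46), was -0.19 (adjusted p = 0.374) with total library size and ran from -0.53 to -0.35 with each library left out. Yap1 turned to 0.0732 with 6 libraries, 0.0314 with quality weights, 0.23 with total library size and 0.0267 with upper-quartile factors, and ran from -0.11 to 0.0573 with each library left out. Amotl1 turned to 0.29 with 6 libraries, 0.15 with quality weights and 0.0393 with total library size, and ran from -0.40 to 0.21 with each library left out. With total library size Tead3 turned to 0.0651 and Lats1 to 0.11. The cause of these turns was not tested. Differences in log2 ratio with each library left out ran from 0.08 to 0.29 for Wwtr1 to Yap1, from 0.45 to 0.68 for Lats2 to Lats1, from -0.82 to -0.05 for Amotl2 to Amotl1 and from 0.28 to 0.57 for Tead3 to Tead1, and exact tests of 4 against 3 libraries cannot go below 0.0571. Among 399 values of 21 members and pathway genes under alternatives, 369 kept their direction and side of the threshold, 18 passed it and 12 turned. With the replicate number as a block, 0 genes and 0 members were called, and Sav1 had an adjusted p of 0.142. Libraries of the same number deviated together with correlations of -0.051, 0.0439, -0.13 and 0.224 for numbers 1 to 4, so the numbers were not taken as pairs.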

Other observations

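Of the 43 pathway genes outside the members, 4 were too low to be tested. Vgll2, a vestigial-like cofactor of skeletal muscle, had 1362 counts in WT replicate 3, 6 in WT replicate 4, 10 in KO replicate 2, 2 in KO replicate 4 and 0 in the other 4 libraries. Wwc1, which encodes the scaffold KIBRA, had 0 to 8 counts per library. Vgll1 had 1 count in all, and Foxf2, a forkhead factor gene, had 0 counts in all 8 libraries. Among the tested target genes, Gadd45a measured 19.7 CPM in WT replicate 3 and 2.14 to 3.13 CPM elsewhere, and Tgfb2 measured 5.83 CPM there and 0.849 to 2.005 CPM elsewhere. The log2 fold change of Gadd45a was -1.38 with 8 libraries and 0.07 with 6, and that of Tgfb2 was -0.86 and 0.10. These genes were named after their values were seen.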
